A study of Mus musculus with 2 samples.

Results

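The cytosolic ribosomal protein genes were followed through the cell classes of the newborn mouse brain in a pair of single-cell libraries. The mice of the first were WT, and those of the second carried STINGf/f;Nestin-Cre (cKO). Members were taken by gene symbol: every gene named Rpl or Rps followed by a number, with or without a closing a, l, x or y, together with Rplp0, Rplp1, Rplp2, Rpsa and Gm8730, a processed pseudogene of Rplp0. The rule gave 82 of the 27998 genes in the files, 50 of the large subunit, 31 of the small subunit and Gm8730. Rpl6l, counted with the large subunit by its symbol, is also annotated as a processed pseudogene. The rule itself takes no measured value, but it was written with earlier results of these data known, and Gm8730 is the only pseudogene that it adds by name. Both libraries came from C57BL/6 telencephalic tissue at P0, which the study describes as cortex. STING, encoded by Tmem173, is an innate immune adaptor that responds to cyclic dinucleotides made after cytosolic DNA is sensed. The cKO library carries floxed STING alleles and the Nestin-Cre transgene, which is used to recombine floxed alleles in neural progenitors and their descendants. The label of the other library is WT, whereas the single-cell results of the study name the control STINGfl/fl, so whether it carries floxed alleles is unsettled, and the number of pooled pups was not given in the sources used here.

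Each ribosomal protein is made in about equal amounts with its partners, because a ribosome holds a single copy of nearly all of them. Most of their mRNAs begin with a cytosine followed by a run of pyrimidines, the 5′ terminal oligopyrimidine (TOP) motif, through which mTORC1 and the RNA-binding protein LARP1 set their translation together. Ribosome production is high in proliferating progenitors and in growing cells, and it is tuned as neurons mature. Messenger RNA counts, as measured here, do not show translation or ribosome number.

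Start sites are shown for members at both ends of the comparison of progenitors with neurons, to show what a TOP run looks like. RefSeq start sites of assembly GRCm38.p6 were matched to 60 members, and in 28 of them (46.7%) a run of at least 5 pyrimidines that opens with C began within 5 bases of a start, against 5718 of 27025 genes (21.2%) in the same table. Each line gives 30 bases before the start and 20 from it, 5′ to 3′ on the gene's own strand, with that run in capitals, and for Rps27l and Rps24, which have 2 annotated starts, the one with a run is shown. Only genes with a run were chosen for printing. The first 5 genes had the highest ratios in progenitor-like cells among those with a run, and the last 3 were among the 6 lowest.
Rps27l (chr9:66946056-66946105, plus strand): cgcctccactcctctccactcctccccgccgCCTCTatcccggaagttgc
Rps9 (chr7:3704011-3704060, plus strand): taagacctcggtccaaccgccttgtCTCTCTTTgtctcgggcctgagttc
Rps24 (chr14:24490648-24490697, plus strand): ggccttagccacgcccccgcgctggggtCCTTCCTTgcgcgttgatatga
Rpl13a (chr7:45128726-45128775, minus strand): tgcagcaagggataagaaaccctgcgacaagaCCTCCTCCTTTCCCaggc
Rps15a (chr7:118116128-118116177, minus strand): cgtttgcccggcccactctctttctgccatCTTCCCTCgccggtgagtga
Rpl12 (chr2:32961682-32961731, plus strand): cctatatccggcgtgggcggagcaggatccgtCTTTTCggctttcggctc
Rpl15 (chr14:18270967-18271016, minus strand): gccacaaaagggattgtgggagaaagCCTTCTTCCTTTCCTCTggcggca
Rpl38 (chr11:114668550-114668599, plus strand): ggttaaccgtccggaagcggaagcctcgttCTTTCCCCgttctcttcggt
No such run was found in this window for Rps7, Rpl10, Rplp0 or Rps28, and a missing run says only that these letters are not within this window of the annotated start.

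The WT library held 10715 barcodes and 69554624 UMIs, and the cKO library 9198 barcodes and 67448785 UMIs. After filtering, 6582 WT and 5949 cKO cells were kept, with a median of 6539 and 7520 UMIs. Tmem173 had 126 UMIs in WT and 18 in cKO kept cells, and it had 0 in projection neuron-like cells of both, so the label could not be checked there. Microglia-like cells had 23 UMIs over 70 WT cells and 3 over 62 cKO cells, and endothelial-like cells 44 over 113 and 14 over 69, so Tmem173 was also lower in cKO in classes that Nestin-Cre is not known to target. The libraries differ in sex, with 13 WT against 99286 cKO UMIs of Xist and 12272 against 7 of Y-linked genes, and 19 barcode sequences occur in both, 8 of them among kept cells. Since each genotype is 1 library, genotype, sex, litter and library preparation cannot be told apart, no test was run, and all intervals are 95% intervals that cover counting error only. Clusters were found without the ribosomal protein genes and named from markers, with names ending in -like. The markers were all at their highest in the class they name for the cycling progenitor, radial glia/astrocyte, OPC (oligodendrocyte precursor), GABAergic interneuron, Cajal-Retzius, endothelial and microglia classes, but for 4 of 6 WT and 3 of 6 cKO markers of the intermediate progenitor and for 5 and 4 of 8 of the projection neuron, while the striatal neuron class had 6 of 7 in WT and 7 of 7 in cKO.

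The members took 9.70% of all WT UMIs and 10.2% of all cKO UMIs, and among kept cells 10.6% (10.5 to 10.6) and 10.9% (10.9 to 10.9). Levels are UMIs per 1000000 UMIs of a class (CPM), which count tagged molecules and not bases. The median member stood at 1339 CPM in WT and 1340 CPM in cKO, and 54 members exceeded 1000 CPM in both. Rpsa, also known as the laminin receptor, was among the highest with 2591 CPM in WT and 2861 CPM in cKO. Rps27a, which is made as a fusion with ubiquitin, stood at 2470 and 2803 CPM. At the other end, 4 members stayed below 100 CPM in both libraries. Rpl10l, a retrogene used in the male germ line, had no UMI in either library. Rpl3l, known from striated muscle, had 13 and 11 UMIs in kept cells, Rpl39l, known from testis, had 28 and 7, and Rpl6l stood at 20.2 and 26.3 CPM. A count minimum of 50 UMIs left 79 members for comparison, all but Rpl10l, Rpl3l and Rpl39l. Across the 81 members with UMIs in both libraries, Pearson's r of log2 CPM was 0.96, a value over genes of 2 libraries and not over replicates.

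Ribosomal protein genes have many processed pseudogenes, and 78 of the 82 members have an annotated near-identical copy (at least 95% identity over 100 bases). For 35 of them such a copy is itself among the genes counted, so reads may be divided between gene and copy. Rps27l, Rpl3l and Rpl39l are among those with none by this rule.

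Microglia-like and endothelial-like cells devoted the greatest share of their UMIs to ribosomal protein genes, and radial glia/astrocyte-like cells the smallest of the 10 classes present in both libraries (with at least 20 cells in each). In microglia-like cells the members made up 16.1% (16.0 to 16.2, 70 cells) in WT and 14.3% (14.2 to 14.4, 62 cells) in cKO. In endothelial-like cells they made up 14.3% (14.3 to 14.4, 113 cells) and 13.9% (13.9 to 14.0, 69 cells). Radial glia/astrocyte-like cells, which here join radial glia with early astrocytes, gave 8.88% (8.85 to 8.91) and 9.45% (9.43 to 9.48). A share is relative to all other RNA of the class, so a low share does not say that fewer ribosomal protein mRNAs were present per cell.

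The neural classes lay between these. Projection neuron-like cells, the excitatory neurons of the cortex, gave 9.68% (9.66 to 9.69, 2331 cells) in WT and 10.4% (10.4 to 10.4, 2630 cells) in cKO. Cycling progenitor-like cells gave 12.1% (545 cells) and 11.2% (223 cells). Intermediate progenitor-like cells, named after the Eomes-expressing precursors of excitatory neurons, gave 10.8% (641 cells) and 11.7% (648 cells). The order of the 2 progenitor classes in cKO depends on the placing of an unnamed cluster of 110 cells. It was led by the replication genes Mcm3 and Mcm2 (share 14.1%) and is not counted as cycling although WT cells led by such genes are. Counted as cycling, it brought the cKO cycling share to 11.9%, above that of intermediate progenitor-like cells, as in WT. However, the marker list that this cluster matched best was that of the intermediate progenitor, with 3 markers detected. Its share lies above the 11.7% of that class, so placing it there would keep the cKO order. That placing was not run. The intermediate class was not made of the same clusters in both, with 430 cells led by Eomes and Sstr2 (11.0%) and 211 led by Calb2 and Neurod1 (10.5%) in WT, and with 461 cells led by Sstr2 and Rnd2 (11.1%) and 187 led by Eomes and Mfap4 (12.9%) in cKO. OPC-like cells gave 11.8% and 12.5%, striatal neuron-like cells 11.7% and 12.4%, GABAergic interneuron-like cells 11.0% and 11.3%, and Cajal-Retzius-like cells, the early Reln-expressing neurons of the marginal zone, 9.73% and 9.62%. The interquartile ranges over cells of most neural classes overlapped, as the plot of shares by class shows. Among OPC-like cells of WT the median cell stood at 9.76%, below the summed 11.8%. The share was higher in deeper cells (Spearman's rho 0.52 over these 317 cells, a description of 1 library). In intermediate progenitor-like cells of cKO it was also higher in deeper cells (0.56 over 648 cells). The same classes gave a weaker rho of 0.24 each in the other library. Projection neuron-like cells gave -0.09 in WT and 0.12 in cKO. Named in WT alone, mural-like cells gave 12.6% (97 cells) and ependymal-like cells 6.18% (44 cells), with the latter the lowest of any named class. A cKO cluster of 27 cells led by the mural markers Vtn and Rgs5 (10.6%) was left unnamed. Large subunit genes gave 1.27 to 1.42 times the UMIs of small subunit genes in every class of both libraries, with microglia-like cells at 1.27 and 1.29 and Cajal-Retzius-like cells at 1.41 and 1.42.

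**Figure D1:**
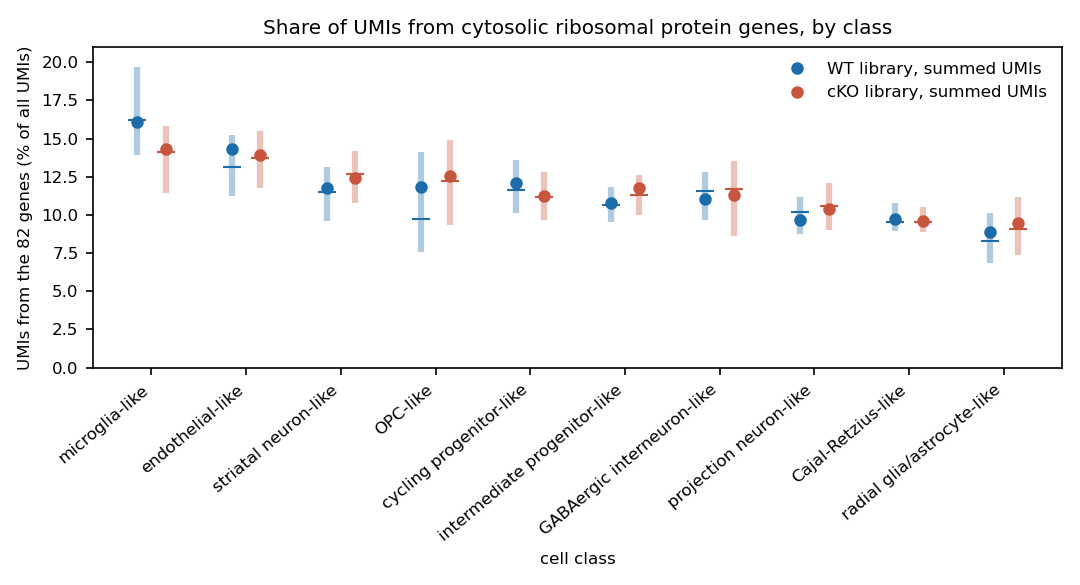
Share of UMIs from the 82 genes (percent of all UMIs, vertical axis) in 10 cell classes (horizontal axis) of the WT and cKO libraries. Points are shares of summed UMIs, dashes the median cell and bars the interquartile range over cells; microglia-like cells are highest (16.1% and 14.3%) and radial glia/astrocyte-like cells lowest (8.88% and 9.45%).

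Among projection neuron-like clusters the lowest shares were in some of those led by genes of deep-layer neurons and of maturing synapses, but not in all. The WT cluster led by Hs3st4, Nts and Nrgn gave 7.32% (204 cells, median 20750 UMIs) and that led by Nrgn and Nwd2 gave 8.96%, while the remaining 6 gave 9.97% to 10.9%. In cKO the cluster led by Nts and Hs3st4 and the one led by Crym and Nrgn both gave 8.57%, with medians of 13804 and 25632 UMIs, and the remaining 6 gave 10.4% to 11.8%. Hs3st4 is known from deep-layer neurons, and Nrgn encodes a calmodulin-binding protein of maturing synapses. Of these 4 clusters 3 were also among the deepest of the projection neuron-like clusters, while the Nts and Hs3st4 cluster of cKO had fewer UMIs per cell than the one led by Nwd2 and Lpl (10.4%, median 15786 UMIs). The part of depth in their low share was not tested. Nrgn was also among the leading genes of the Nwd2 and Lpl cluster of cKO. Nts was also among those of a WT cluster led by Cck and Tshz2 (10.3%). Among GABAergic interneuron-like cells the cluster led by Sp8 and Dlx genes gave 12.2% in WT and 13.6% in cKO. The other clusters gave 7.27% to 10.5% in WT and 10.4% to 10.7% in cKO. The lowest of these held 65 WT cells led by Npy, Sst and the haemoglobin gene Hbb-bs.

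The question of progenitors against neurons was asked of each gene by joining cycling and intermediate progenitor-like cells and setting them against projection neuron-like cells. Radial glia/astrocyte-like cells, with 0.918 and 0.910 times the share of projection neuron-like cells, were not joined. Of the joined intermediate clusters, that of 211 WT cells and that of 461 cKO cells did not have Eomes among their leading genes. Projection neuron markers summed to 930 CPM in progenitor-like cells of WT and 1009 CPM in cKO, against 4759 and 3352 CPM in projection neuron-like cells. In progenitor-like cells intermediate progenitor markers summed to 395 and 489 CPM and cycling markers to 2716 and 2228 CPM. The part of neuron-like cells in the ratios was not tested. Together the members took 1.19 times (1.19 to 1.20) as large a share in progenitor-like cells in WT and 1.11 times (1.11 to 1.11) in cKO. By cluster the ranges met. The WT cluster led by Calb2 and Neurod1 (10.5%) lay within the 7.32% to 10.9% of WT projection neuron-like clusters. In cKO the cycling cells (11.2%) and the cluster led by Sstr2 and Rnd2 (11.1%) lay within 8.57% to 11.8%. The other progenitor-like clusters lay above these ranges, with 11.0% to 12.6% in WT and 12.9% in cKO. With a call at 25% higher or 20% lower in both libraries, 8 of the 79 members were higher in progenitor-like cells, or 10.1%, against 30.0% of the 11444 genes compared, and 0 were lower, against 22.8%. Most members moved slightly and together. The ratio was above 1 for 74 members in WT and 63 in cKO, against 6206 and 6637 of the 11444 genes. Medians were 0.28 and 0.15 on the log2 scale, against 0.07 and 0.13 over all genes. The count of 8 was 19 with no cell filter, 22 with a stricter one, 15 at a lower clustering resolution and 5 with both libraries clustered together. Shares of all genes under other settings are not given here. In WT alone 27 of the 79 members were higher by the fold, against 4065 of the 11444 genes, and in cKO alone 9, against 4540. When library sizes were scaled by TMM, a method that centres the bulk of genes, the median of the members went from 0.28 to 0.15 in WT and turned from 0.15 to -0.12 in cKO, that of all genes became -0.06 and -0.14, and the only member still higher in both libraries was Rps27l. With the Mcm-led cluster added to the cKO progenitor-like cells, the cKO ratio was 1.14 and 13 members were called.

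Of the 8 called genes 6 belong to the small subunit. These were 6 of 31 small subunit genes (19.4%) and 2 of 47 large subunit genes (4.26%), both under the 30.0% of all genes. The medians of the subunits were close, with 0.27 and 0.16 for the small and 0.28 and 0.14 for the large. Rps27l, a paralog of Rps27 that is a target of p53, stood apart, with 348 CPM in progenitor-like against 118 CPM in projection neuron-like cells of WT and 232 against 81.0 CPM in cKO. Its log2 ratios were 1.55 (1.48 to 1.63) and 1.52 (1.43 to 1.60), about 1 log2 unit above every other member in both libraries. Rps9 came next by the mean over libraries, with 1715 against 1146 CPM in WT and 1669 against 1211 CPM in cKO. Its log2 ratios were 0.58 and 0.46, the latter below that of Rps24. Rps24, one of the genes mutated in Diamond-Blackfan anaemia, stood at 2688 against 1920 CPM in WT and at 3194 against 2219 CPM in cKO, which gave 0.49 and 0.53. Rpl13a, the highest of the large subunit and also a part of the interferon-gamma activated inhibitor of translation, gave 0.44 and 0.37, and Rps15a gave 0.39 and 0.38. Rpl35a and Rps14, both also linked to failure of red cell production, were also called with 0.42 and 0.34 each. All 8 pairs of intervals lay above 0.

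Rpl38, a large subunit protein required for the translation of several Hox mRNAs in the embryo, was lowest, with 1305 against 1466 CPM in WT and 912 against 1115 CPM in cKO. Its log2 ratios were -0.17 (-0.20 to -0.14) and -0.29 (-0.33 to -0.25), below 0 in both libraries yet within the fold. The X-linked Rpl10, which joins the large subunit late in its assembly, gave -0.09 and -0.15, Rplp1 gave -0.04 and -0.15, and Rpl15 gave -0.03 and -0.07. Rpl12, at the base of the stalk, gave 0.03 and -0.09, and Rps7 gave -0.01 in both, with intervals that include 0. Of the stalk proteins, which recruit elongation factors, Rplp0 gave 0.30 and 0.22 and Rplp2 gave 0.17 and 0.02 beside the values of Rplp1, and with TMM scaling all 3 were below 0 in cKO. Rpsa gave 0.10 and 0.00. Over the 79 members the ratios of the 2 libraries had a Pearson's r of 0.94, a description over genes to which Rps27l contributes much, and 68 had the same sign.

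**Figure D2:**
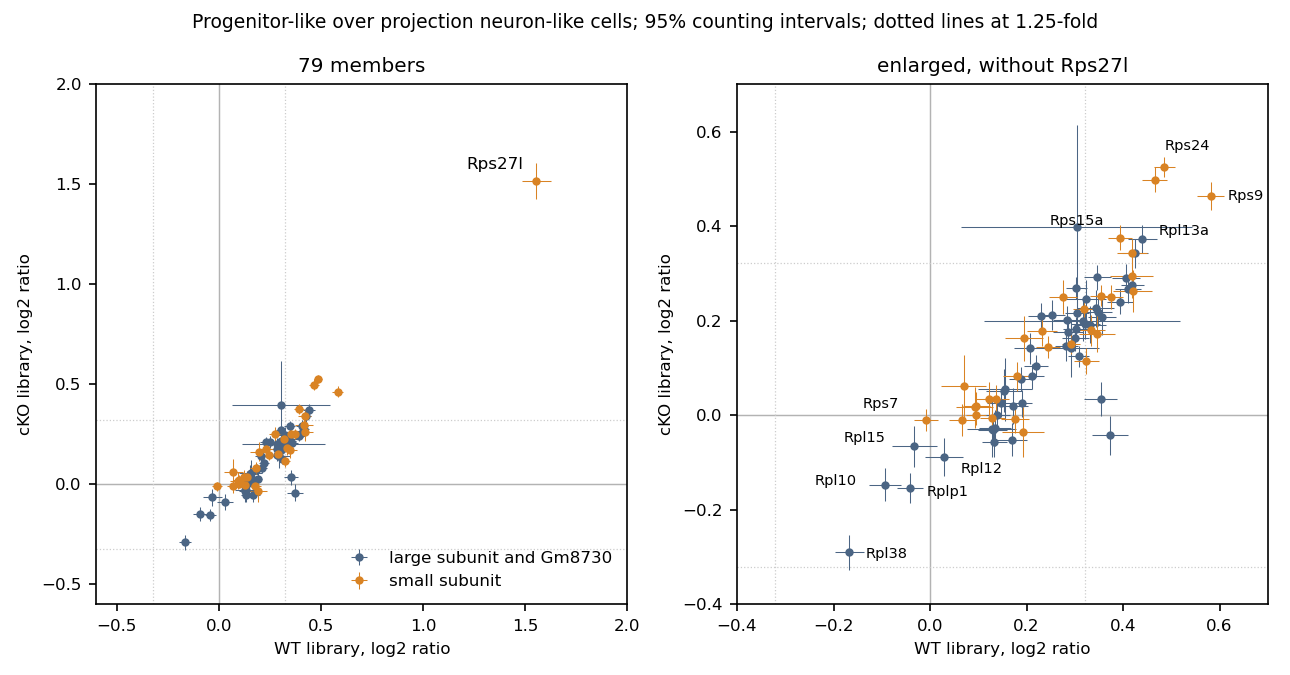
Log2 ratio of CPM in progenitor-like over projection neuron-like cells in WT (horizontal axis) and cKO (vertical axis) for 79 members, with 95% counting intervals; the right panel enlarges the centre. Rps27l lies alone at 1.55 and 1.52, and Rpl38 is lowest at -0.17 and -0.29.

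The class profiles of the members were alike in the main and singular in a few. Over the 10 classes, the log2 level of a member followed the mean of the others with a median r of 0.90 in WT and 0.82 in cKO (78 members, 10 points each, a description of classes of 1 library). In both libraries 32 members were highest in microglia-like cells and 13 in endothelial-like cells, and radial glia/astrocyte-like cells were lowest for 51 members in WT and 37 in cKO, where Cajal-Retzius-like cells were lowest for 31 (10 in WT). Among the genes with less common profiles were Rpl23a, with r of 0.14 and 0.23, Rps27l with 0.42 and 0.18, Rps26 with 0.42 and 0.34, Rpl15 with 0.40 and 0.38, Rpl38 with 0.50 and 0.54, and Rpl13 with 0.60 and 0.50. Rpl23a and Rps26 were highest in striatal neuron-like cells in both libraries. Rps26, which contacts mRNA upstream of the start codon, and Rpl23a, which lies at the exit of the nascent chain, are among the genes with a counted near-identical copy. The genes described in the following paragraphs as highest or lowest in a class were chosen after their values were seen.

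In radial glia/astrocyte-like cells 10 members were lower than in projection neuron-like cells in both libraries (28.5% of all genes were) and 1 was higher (33.8% of all genes). The medians were -0.11 in WT and -0.14 in cKO, against 0.03 and 0.11 over all genes. With TMM scaling 37 members were lower, and the medians were -0.30 and -0.57 against -0.16 and -0.32 over all genes. Percentages of all genes printed beside counts belong to unscaled ratios, and shares of all genes called with TMM scaling are not given here. The higher gene was Rps27l, with 272 against 118 CPM in WT and 293 against 81.0 CPM in cKO, log2 ratios of 1.20 and 1.85. Rps10, a small subunit protein near the mRNA entry channel, was next with 0.36 and 0.26, of which the cKO value turned to -0.17 with TMM scaling. The lowest were Rpl38 (-0.57 and -0.66), Rps26 (-0.54 and -0.52), Rpl10 (-0.57 and -0.49) and Rps7 (-0.47 and -0.49). Rpl38, Rpl10 and Rps7 were thus among the lowest members here as in the progenitor-like cells.

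In OPC-like cells 29 members were higher in both libraries (33.6% of all genes were) and 0 were lower (20.7%), a share of members near that of all genes on the higher side. These are ratios of summed UMIs, whereas the median WT cell stood at 9.76% in OPC-like and 10.2% in projection neuron-like cells, so by the median cell the WT direction of the members' share was the opposite. With TMM scaling 2 members were higher and 7 lower, and the cKO median turned from 0.26 to -0.24, against -0.27 over all genes. Rpl13, a large subunit protein, was the outstanding member after Rps27l, with 4713 CPM in OPC-like cells of WT against 2069 CPM in projection neuron-like cells and 4876 against 2724 CPM in cKO. These gave 1.19 (1.15 to 1.22) and 0.84 (0.80 to 0.88) on the log2 scale, and OPC-like cells held its highest level of the 10 classes in both libraries. Rps27l gave 1.37 and 1.96, Rps18 gave 0.64 and 0.57, and Rpl38 was again lowest with -0.30 and -0.41. The 10 radial glia/astrocyte markers summed to 6600 CPM in OPC-like cells of WT and 2848 CPM in cKO. In projection neuron-like cells they summed to 131 and 77.5 CPM, and their part in the result was not tested. The 6 OPC markers summed to 5644 and 3888 CPM in OPC-like cells.

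Among the other neuronal classes, in GABAergic interneuron-like cells 2 members, Rps27l and Rps27, were higher in both libraries (15.5% of all genes were) and 0 were lower (17.7%), and with TMM scaling 1 was higher and 1 lower. Rps27l gave 0.51 and 0.55 and Rps27 gave 0.42 and 0.37, while Rplp1, the lowest in WT, gave -0.40 and -0.19. In striatal neuron-like cells 19 members were higher (14.0% of all genes were) and 1 was lower (18.4%), and with TMM scaling 0 were higher. Rpl7 gave 0.51 and 0.45, Rps7 gave 0.48 and 0.43 and Rps10 gave 0.49 and 0.40. The lower member was Rps27l, with 85.5 against 118 CPM in WT and 62.2 against 81.0 CPM in cKO, so that this gene was lowest where most others were above projection neurons.

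Outside the neural lineage, 47 members were higher in endothelial-like than in projection neuron-like cells in both libraries (28.4% of all genes were) and 0 were lower (38.1%). Their medians were 0.52 and 0.36 against -0.20 and -0.16 over all genes. With TMM scaling 20 stayed called, with medians of 0.44 and 0.03 against -0.28 and -0.49 over all genes. Here Rpl38 was reversed from its place in progenitors, with 3975 CPM against 1466 in WT and 2810 against 1115 in cKO, log2 ratios of 1.44 (1.40 to 1.48) and 1.33 (1.29 to 1.38). Rps27l was highest of all with 1.51 and 1.75, Rpl28 gave 1.13 and 1.07 and Rps20 gave 1.04 and 0.76. Rpsa was not higher, with -0.04 and -0.44, nor was Rps26, with -0.23 and -0.34. The summed markers of red blood cells stood at 3923 CPM in these cells of WT and 6187 CPM in cKO, against 183 and 5.3 CPM in projection neuron-like cells, and their part in the result was not tested.

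Microglia-like cells had 52 members higher in both libraries (21.2% of all genes were) and 0 lower (44.6%), with medians of 0.70 and 0.41 against -0.51 and -0.40 over all genes. With TMM scaling 49 stayed called, with medians of 0.80 and 0.39 against -0.42 in both libraries over all genes. Rps12, a small subunit protein, stood at 3137 CPM against 1124 in WT and at 2409 against 1122 in cKO, log2 ratios of 1.48 (1.42 to 1.54) and 1.10 (1.02 to 1.18). Rps27l gave 1.44 and 1.91, Rps29 gave 1.34 and 1.02 and Rpl35a gave 1.27 and 1.01, while Rpl38 gave -0.07 and -0.22 and Rpl15 gave -0.01 and -0.17, both just above 0 in WT with TMM scaling. Rps6, the substrate of S6 kinase, gave 0.93 and 0.74. Red blood cell markers summed to 8.5 CPM in microglia-like cells of WT but to 18802 CPM in those of cKO, where the ratios of the members were smaller, and the part of this RNA in the difference was not tested. The 10 cycling markers summed to 1418 and 1324 CPM in microglia-like and to 804 and 418 CPM in endothelial-like cells, against 48.5 and 66.6 CPM in projection neuron-like cells, and their part in the higher levels was not tested either.

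**Figure D3:**
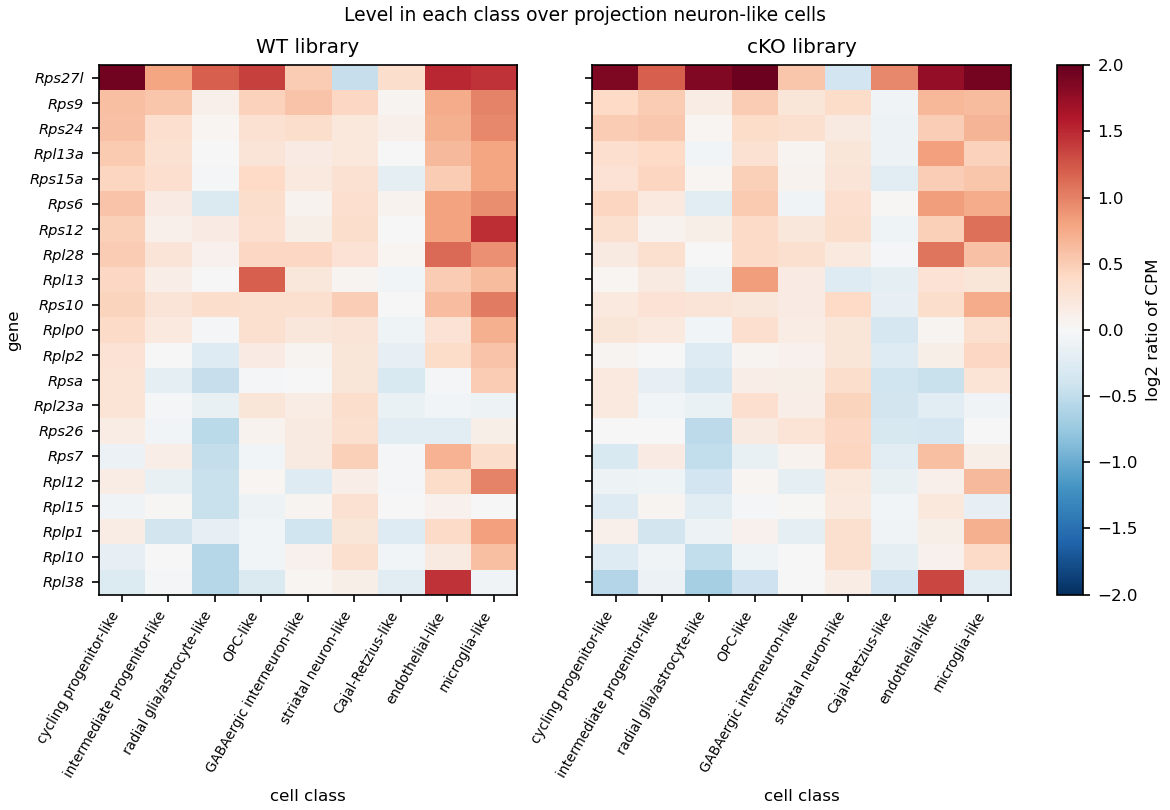
Log2 ratio of CPM in each of 9 classes over projection neuron-like cells (columns) for 21 members (rows) in the WT and cKO libraries, with red higher and blue lower. Rps27l is high in cycling, radial glia/astrocyte-like, OPC-like, endothelial-like and microglia-like cells and low in striatal neuron-like cells, Rpl38 is high in endothelial-like cells (1.44 and 1.33), and Rpl13 in OPC-like cells (1.19 and 0.84).

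Several ribosomal proteins are encoded by a pair of paralogs, and the balance between them varied by class. Rps27l made up 37.1% (36.0 to 38.3) of the UMIs of Rps27l and Rps27 together in cycling progenitor-like cells of WT and 35.6% (33.7 to 37.4) in cKO. It made up 29.2% and 37.0% in radial glia/astrocyte-like, 20.8% and 23.0% in intermediate progenitor-like, 14.996% (14.49 to 15.51) and 13.4% (12.9 to 13.9) in projection neuron-like and 8.54% and 8.55% in striatal neuron-like cells. The intervals of cycling, intermediate progenitor-like, projection neuron-like and striatal neuron-like cells did not overlap in either library and kept this order. Cajal-Retzius-like cells, with 17.4% (14.96 to 20.16) and 24.7% (21.8 to 27.7), and endothelial-like cells, with 22.5% and 23.5%, overlapped with intermediate progenitor-like cells in both, and GABAergic interneuron-like cells, with 15.8% and 14.8%, overlapped with projection neuron-like cells. High shares were also found outside this order, with 26.8% and 30.6% in OPC-like and 24.9% and 32.7% in microglia-like cells, the latter overlapping with cycling progenitor-like cells in cKO. Rpl22l1, the paralog of Rpl22 and not itself a member, made up 57.2% (54.4 to 59.9) and 54.7% (52.4 to 57.0) of that pair in Cajal-Retzius-like cells, 46.8% and 46.7% in radial glia/astrocyte-like cells and 31.6% and 31.5% in GABAergic interneuron-like cells. In projection neuron-like cells it made up 41.2% (40.66 to 41.82) in WT and 30.5% (29.95 to 30.96) in cKO.

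Other genes of the translation machinery were compared in the same way, by list. Of 23 translation factors and further TOP mRNAs, 3 (13.04%) were higher in progenitor-like cells in both libraries and 1 was lower, with medians of 0.15 and 0.08, against 30.0% and 22.8% of all genes. Tpt1, itself a well-known TOP mRNA, gave 0.50 and 0.41, Hnrnpa1 gave 0.45 and 0.49 and Nap1l1, a nucleosome chaperone, gave 0.69 and 0.39. Eif4a2, the helicase isoform typical of neurons, was the lower one with -0.74 and -0.96. Of 31 ribosome biogenesis genes 6 (19.4%) were higher and 4 (12.9%) lower, both under the shares of all genes, among them Dkc1, the pseudouridine synthase of ribosomal RNA, with 1.05 and 0.73, and Bop1, a processing factor of the large subunit, with -0.46 and -0.88. In radial glia/astrocyte-like cells 14 of these 31 (45.2%) were lower and 4 higher, and 8 of the 23 translation genes (34.8%) were lower and 1 higher, against 28.5% and 33.8% of all genes.

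Between the libraries, the members as a whole took 1.07 times (1.07 to 1.08) as large a share in cKO as in WT projection neuron-like cells. The ratio was 1.00 (0.996 to 1.00) in progenitor-like cells, 0.929 in cycling progenitor-like, 1.09 in intermediate progenitor-like, 0.972 in endothelial-like and 0.890 (0.881 to 0.898) in microglia-like cells. With the Mcm-led cluster of cKO counted as cycling it was 1.03 in progenitor-like and 0.987 in cycling progenitor-like cells. It thus lay on both sides of 1. The median mitochondrial percent of projection neuron-like cells was 6.52 in WT and 7.29 in cKO. Over these cells the share rose with that percent (Spearman's rho 0.22 and 0.39), and its part in the ratio was not tested. In projection neuron-like cells 13 of 79 members were higher in cKO by over 25% (22.3% of 12196 genes were) and 11 were lower by over 20% (42.7%). Their median was 0.11 against -0.18 over all genes, and with TMM scaling 37 were higher and 4 lower, with a median of 0.31 against 0.02.

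Which members were higher and which lower varied with the length of the coding sequence. Of the 10 members with a coding length under 300 bases all were lower in cKO, with a median of -0.46, and of the 21 with 600 bases or more all were higher, with a median of 0.22, and both counts were the same with TMM scaling. Rps28 was lowest, with 521 CPM in WT and 292 CPM in cKO (-0.83, -0.87 to -0.79). Rpl41, the shortest with a coding length of 75 bases, stood at 2341 and 1601 CPM (-0.55), Rps29 at 1474 and 1010 CPM (-0.55), Rps27l at 118 and 81.0 CPM (-0.55) and Rps21 at 1212 and 860 CPM (-0.50). Rps3, which lines the mRNA entry channel, stood at 1252 and 1730 CPM (0.47), Rpl15 at 546 and 751 CPM (0.46), Rpl9 at 1705 and 2311 CPM (0.44) and Rps7 at 1861 and 2496 CPM (0.42). Among the X-linked members Rps4x gave 0.29, Rpl10 0.12, Rpl36a -0.37 and Rpl39 -0.43, in the order of their coding lengths of 789, 642, 318 and 153 bases.

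Spearman's rho of the log2 ratio with coding length was 0.74 over the 77 members with a coding length and 0.10 over 11588 other genes, both across genes of the same 2 libraries. Other genes under 300 bases were also lower, 199 of 242, with a median of -0.49, whereas of those with 600 bases or more 4124 of 10069 were higher, with a median of -0.17. Over the other classes examined rho over the members ran from 0.60 in endothelial-like to 0.76 in microglia-like cells. At least 9 of the 10 shortest members were lower in each of them, but of the 21 longest 16 were higher in progenitor-like, 14 in endothelial-like and 8 in microglia-like cells (median -0.03). In microglia-like cells Rps28 gave -1.09 and Rpl41 -0.73. Fragment size and read length of the 2 libraries are not in the files used here, and their part in the relation was not tested.

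**Figure D4:**
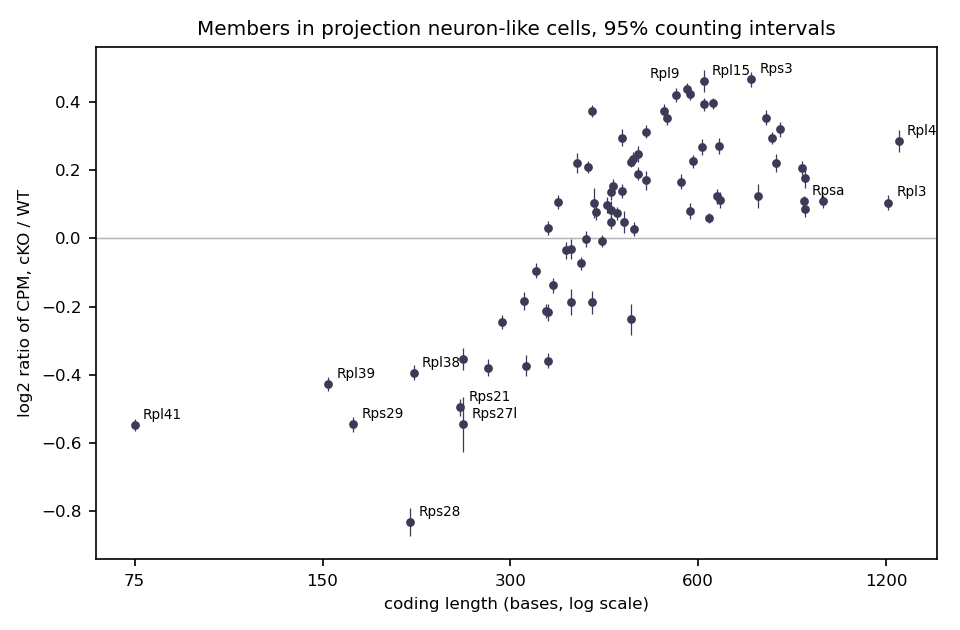
Log2 ratio of CPM in cKO over WT projection neuron-like cells (vertical axis) against coding length in bases (horizontal axis, log scale) for 77 members, with 95% counting intervals. All 10 members under 300 bases lie below 0 and all 21 with 600 bases or more lie above it.

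Gm8730, which the rule names with earlier results known, had by far the highest ratio, and its values are a description. It stood at 24.7 CPM in WT and 648 CPM in cKO projection neuron-like cells, a log2 ratio of 4.71 (4.596 to 4.833), whereas Rplp0 stood at 1650 and 1779 CPM, a ratio of 0.11 (0.09 to 0.13). Gm8730 lies on the minus strand at chr8:102864845-102865798 of GRCm38 and has no intron, and Rplp0 on the plus strand at chr5:115559467-115563727. The pseudogene matched the coding sequence of Rplp0, stop codon included, over 954 bases with 98.7% identity and 12 substitutions. Counted from the A of the start codon, with the base of Rplp0 first, these were T72C, G138C, T192C, T300C, A390G, A393G, A447T, G502A, G558C, T603G, A696G and A784G. The stretch of 80 bases shown here, which holds A390G, A393G and A447T in capitals, shows how few bases tell a read of one from a read of the other.
Rplp0: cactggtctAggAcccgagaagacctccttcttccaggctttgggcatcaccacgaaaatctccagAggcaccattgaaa
Gm8730: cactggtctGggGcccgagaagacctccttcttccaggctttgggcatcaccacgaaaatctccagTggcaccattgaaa

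The share of Gm8730 in the pair was nearly the same in every class of a library and far apart between the libraries. It ran from 1.35% to 1.76% over the 10 classes in WT and from 25.6% to 27.3% in cKO. Microglia-like cells gave 1.49% (1.00 to 2.13) and 25.6% (23.5 to 27.8), and projection neuron-like cells 1.48% (1.36 to 1.60) and 26.7% (26.4 to 27.0). The pair together summed to 1675 CPM in WT and 2428 CPM in cKO projection neuron-like cells. Which bases the cKO animals carry at the 12 positions cannot be read from UMI counts, and whether these reads come from the pseudogene or from Rplp0 mRNA could not be told apart. Of the near-identical copies among the genes counted, 30 others carry a pseudogene name, a Gm number, a clone name or the name Rps27rt and had at least 50 UMIs over the kept cells of both libraries, and 26 of these lay within 1 log2 unit of equal levels in the 2 libraries, with a median of 0.22 over all kept cells. The exceptions were Rpl7a-ps3 (4 WT and 46 cKO UMIs), Rpl13a-ps1 (12 and 44), Gm6576 (28 and 62) and BC004004, a copy of Rpl21 (3664 and 7331).

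**Figure D5:**
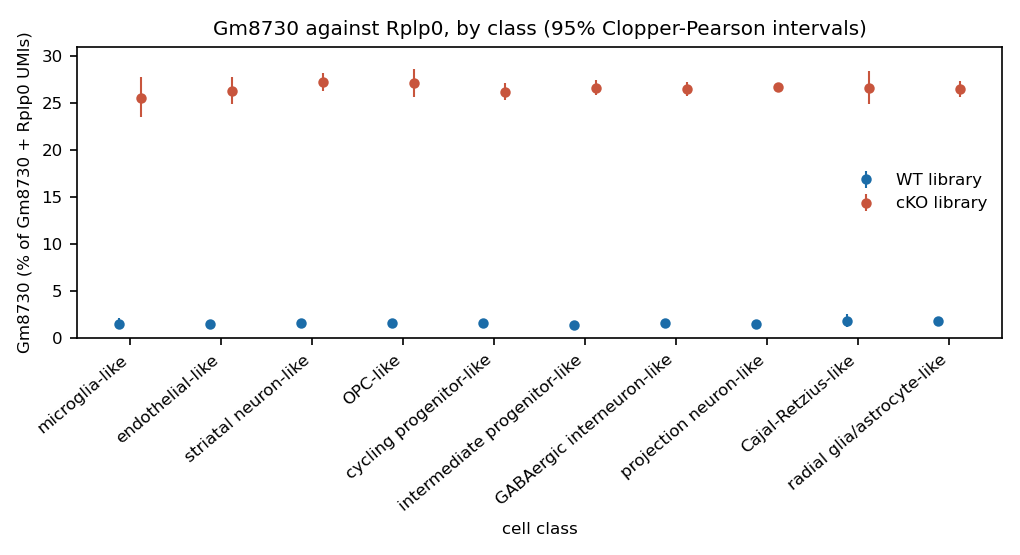
Gm8730 as a percent of the UMIs of Gm8730 and Rplp0 together (vertical axis) in 10 cell classes (horizontal axis), with 95% Clopper-Pearson intervals. WT classes lie between 1.35% and 1.76% and cKO classes between 25.6% and 27.3%.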

How the data were processed

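Single-cell RNA of P0 telencephalon was captured on the 10x Genomics platform, with 1 WT and 1 cKO library. The authors deposited raw UMI counts per gene and barcode, written by Cell Ranger 3.0.1 per the file headers, whereas the submitters' processing notes name Cell Ranger 2, STAR, Seurat and the mm9 build. The build and annotation of the counts are therefore unsettled, whether counting used strand is not given in the sources used here, and coordinates are those of RefSeq GRCm38.p6 for start sites and of GENCODE M21 (GRCm38) for genes, matched by symbol or gene ID. A deposited combined matrix whose columns name no sample, and tables of the authors' cluster markers, were not used.

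Cells with at least 500 genes and at most 10% mitochondrial UMIs were kept, Scrublet doublets removed (184 WT, 131 cKO) and each library clustered with scanpy 1.11.5 (2000 variable genes without ribosomal protein genes, 30 components, 15 neighbours, Leiden resolution 1). Clusters were named from at least 3 detected markers. Unnamed clusters, 188 WT and 314 cKO cells, entered no class. These classes are rebuilt and may differ from those of the study. UMIs were summed per class. Shares carry Clopper-Pearson intervals and ratios of 2 sums conditional binomial intervals. Genes with at least 50 UMIs over the cells compared in each library were compared (over both libraries together for cKO over WT), with a call at 25% higher or 20% lower. Copies were found with BLAST 2.17.0. TMM factors came from edgeR 4.0.16 and no test was run. Ratios and intervals were checked on simulated counts with counting error only, which cannot test the spread between cells, clusters or animals.

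Members, gene lists, comparisons and tests were chosen with earlier results of these data known. The named genes are the 6 highest and 6 lowest ratios of progenitor-like over projection neuron-like cells, the 5 highest and 5 lowest of cKO over WT, the 3 highest levels, stalk genes, Rpsa, Gm8730, paralogs and X-linked members. Others were chosen after their values were seen, and some genes that the rule names are not reported here.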

Additional observations from a re-analysis of the deposited data

How the results depend on the processing

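The share ratios stayed on their side of 1 under the alternatives listed here, which rescale no library. TMM scaling was applied to single genes only, where it turned the cKO median of the members for progenitor-like cells from 0.15 to -0.12. The ratio of progenitor-like over projection neuron-like cells was 1.19 in WT and 1.11 in cKO, with 8 members higher in both, and cKO over WT in projection neuron-like cells was 1.07. In that order, no cell filter gave 1.27, 1.17, 19 members and 1.10, and a stricter filter (1000 genes, 5% mitochondrial) gave 1.39, 1.18, 22 and 1.09. Clustering both libraries together gave 1.18, 1.10, 5 and 1.08, and Leiden resolution 0.5 gave 1.21, 1.15, 15 and 1.08. Resolution 2 gave 1.15 in WT and 1.04 for cKO over WT, and classing cells by marker scores gave 1.19 and 1.06. Without mitochondrial and haemoglobin genes the 3 ratios were 1.18, 1.09 and 1.08, as the mean over cells 1.14, 1.10 and 1.04, and with cells thinned to 1000 UMIs 1.13, 1.09 and 1.03. The 4 members without near-identical copies alone gave 1.30, 1.17 and 1.27, and cycling progenitor-like cells alone 1.251 and 1.08. Leaving Gm8730 out gave 1.07 for cKO over WT, and keeping doublets gave 1.12 for cKO progenitors. The count of members was 1 at 1.5-fold and 1 with TMM scaling. An alternative chosen after seeing the data, which counts the Mcm-led cluster as cycling, gave 1.14 in cKO and 13 members. Gm8730 moved only with TMM scaling, from 4.71 to 4.92. The combined matrix was not run as an alternative. No paired analysis was possible because each group has 1 library and the labels carry no replicate number.

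With 1 library per genotype the spread between animals is unknown, and differences of a few percent in a share, though far outside counting error, are within the range that the choice of filter or clustering gave. Shares and ratios are relative to the other RNA of a class, so the count of members past the fold rests on the scaling. Depth limits Rpl3l, Rpl39l and Rpl10l, and classes of under 120 cells, endothelial-like and microglia-like among them, rest on few cells.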

Other observations

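The mitochondrial ribosomal protein genes, which build the separate ribosome of that organelle, were compared in the same way. Of 77 such genes, 76 were compared, and 12 were higher in progenitor-like than in projection neuron-like cells in both libraries (15.8%) and 3 lower (3.95%), with medians of 0.11 and 0.05, against 30.0% and 22.8% of all genes. In cKO over WT projection neuron-like cells 46 of 77 were lower and 9 higher, against 42.7% and 22.3% of all genes, with a median of -0.49, while the median of the cytosolic members was 0.11 and that of all genes -0.18. Their share of UMIs was 0.608% in WT and 0.450% in cKO projection neuron-like cells.

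Of 14 regulators of ribosome production 1 (7.14%) was higher in progenitor-like cells and 1 lower, against 30.0% and 22.8% of all genes. Eif4ebp1, an inhibitor of cap-dependent translation that mTORC1 phosphorylates, was the higher one (10.5 against 3.2 CPM in WT and 5.5 against 0.89 CPM in cKO). Myc, a transcription factor that drives ribosome production, was the lower one, with 9.0 against 21.6 CPM and 6.4 against 33.5 CPM. Mycn and Mycl of the same list were not called and stood higher than Myc in progenitor-like cells. Mycn had 83.3 CPM in WT and 102 CPM in cKO, and Mycl had 149 and 289 CPM. Eef1a2, the elongation factor of mature neurons and muscle, stood at 14.1 against 114 CPM and 7.55 against 63.0 CPM, and its counterpart Eef1a1 at 6044 against 6149 CPM and 7199 against 8170 CPM.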
